A study of Homo sapiens with 6 samples.

Results

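Tumor cells that invade must cut through the matrix around them, and the 9 genes described here encode part of that machinery and its brakes. They are the matrix metalloproteinases MMP1, MMP3 and MMP14, the sheddase ADAM17, the tissue inhibitors of metalloproteinases TIMP1, TIMP2 and TIMP3, the urokinase-type plasminogen activator PLAU and its receptor PLAUR. They were chosen by name as a functional group, with earlier results of these data known. Their symbols were matched to 9 of the 61552 Ensembl gene identifiers in the count files. After exposure of MDA-MB-231 cells to VNLG-152R, mRNA of MMP1 rose 1.78-fold, TIMP1 1.49-fold and TIMP3 1.37-fold. None of the 9 fell at the threshold used, and the remaining 6 did not pass the test.

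MDA-MB-231 is an established line from a triple-negative breast cancer, grown as adherent cells. One group of 3 samples received 10 µM VNLG-152R for 24 h, and the other 3 samples received the DMSO vehicle for 24 h. VNLG-152R is a compound under study against triple-negative breast cancer that the investigators describe as causing degradation of the MNK kinases, which act on the translation factor eIF4E. PolyA RNA was read on an Illumina platform, and raw read counts per gene were deposited for each sample. The labels do not say whether the 3 samples of a group were independent experiments, so the p-values below measure no more than how far these samples differ, and that spread may be technical.

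Vehicle control libraries held 60122936 to 68583224 counts in genes and treated libraries 69923839 to 82151816, so that all of the latter were deeper. Reads outside annotated genes made up 2.63% to 3.17% of the controls, and of the treated libraries 3.36% to 5.05%. The line matched its label: all 10 mesenchymal breast line markers passed the expression filter, while ESR1, the estrogen receptor, had at most 8 counts in any library. Summed over those 10 markers the level was 11200 to 11980 CPM, counts scaled to the normalized library size, in the controls, against 8983 to 10950 CPM in treated libraries, where VIM, CAV1 and S100A4 fell. The summed level of 10 luminal epithelial markers was 1537 to 1612 CPM in controls, against 1160 to 1520 CPM after treatment, and edgeR called none of the 9 tested (2 at an unadjusted p under 0.05). Of the fibroblast and the leukocyte list 3 of 10 markers each could be tested and none was called (0 and 1 at an unadjusted p under 0.05), with summed levels of 21.2 to 22.2 and 4.02 to 4.91 CPM in controls against 20.35 to 23.9 and 3.46 to 5.23 CPM after treatment. Several markers were at or near 0, with at most 2 counts for DCN and PTPRC and TYROBP listed at 0, but others were present, COL1A1 at 1016 to 1251 counts, PDGFRB at 154 to 259 and CD14 at 174 to 212. Among 8 endothelial markers KDR rose, the summed level was 35.08 to 41.45 CPM in controls against 59.6 to 63.2 CPM after treatment, and CDH5 had at most 10 counts but PECAM1 had 1297 to 2155. The part of these shifts in the results below was not tested.

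Matrix metalloproteinases are zinc enzymes, made as inactive proenzymes, that cleave collagens, proteoglycans and other matrix proteins. TIMPs bind their active sites and block them. Urokinase is a serine protease that, held at the cell surface by its receptor, turns plasminogen into plasmin, and plasmin in turn cleaves matrix and activates several proenzymes. Many genes of this system, MMP1 and PLAU among them, are known targets of AP-1 and ETS transcription factors.

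The promoters of the 2 inhibitor genes that rose are shown first, together with the stretches of TIMP1 and PLAUR that hold an AP-1 type motif. RefSeq gave a window of 250 bases before the start on GRCh38.p14 for 6 of the 9 genes, and MMP1, MMP3 and TIMP2 had no entry. Each window was searched on both strands for the AP-1 motif TGANTCA and the ETS motif AGGAAG, and for the AP-1 variant TGAGTAA, which was added after the sequences were seen. Bases that GENCODE places in an exon of the gene are left out of the longer sequences, capitals mark a motif, and no motif overlapped another. The sequences are, 5′ to 3′, TIMP1 from chrX:47582186-47582312 (plus strand, positions -250 to -124 from the start), TIMP3 from chr22:32801455-32801700 (plus strand, positions -250 to -5), the TIMP1 motif stretch from chrX:47582330-47582359 (plus strand) and the PLAUR motif stretch from chr19:43670338-43670366 (minus strand).
TIMP1: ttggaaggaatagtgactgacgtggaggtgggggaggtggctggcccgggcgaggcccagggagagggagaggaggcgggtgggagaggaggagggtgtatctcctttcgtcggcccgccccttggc
TIMP3: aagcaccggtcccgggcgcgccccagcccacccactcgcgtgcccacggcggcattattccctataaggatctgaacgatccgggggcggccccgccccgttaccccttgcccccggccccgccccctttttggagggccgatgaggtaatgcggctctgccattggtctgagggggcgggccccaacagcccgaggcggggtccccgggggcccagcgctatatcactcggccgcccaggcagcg
TIMP1 motif stretch: gtggaTGAGTAAtgcatccAGGAAGcctgg
PLAUR motif stretch: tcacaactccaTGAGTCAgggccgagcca
The PLAUR window held TGANTCA, as TGAGTCA, at position -186, and 6.57% of 35116 windows of the same length held this motif. The TIMP1 window held TGAGTAA at -101, a motif in 2.21% of windows, and AGGAAG at -87. AGGAAG was also found once each in ADAM17 at -157, in PLAU at -221 and in PLAUR at -15, and it is common, with a match in 28.7% of windows. The windows of TIMP3 and MMP14 held none of the 3 motifs. G and C made up 72.4% of the 250 bases in TIMP3, 64.8% in TIMP1 and 63.2% in PLAUR. The other windows had 75.6% in ADAM17, 68.8% in PLAU and 56.8% in MMP14. Of the genes that rose, TIMP1 held the AP-1 variant and an ETS match, TIMP3 held no match and MMP1 had no window. PLAUR, which did not pass the test, held TGANTCA. Whether these motifs bear on the changes was not tested. Both motif stretches lie within an exon that GENCODE annotates for a longer transcript of the gene. A match describes letters and not binding.

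All 9 genes passed the expression filter of edgeR and were tested among 17084 genes. At an adjusted p under 0.05, 3 of the 9 were higher and 0 were lower in edgeR (4 and 0 at an unadjusted p under 0.05, and 3 called in DESeq2), while 5.19% of all tested genes were called in either direction and 3.76% were called higher. In 5 of the 9 (MMP1, ADAM17, TIMP1, TIMP3 and PLAU) the 3 treated libraries did not overlap the 3 controls, against 28.5% of all tested genes. The median log2 fold change over the 9 genes was 0.20, beside 0 over all tested genes, and 8 of the 9 had a value above 0. The 9 genes were chosen with earlier results of these data known, so these counts and this median are a description only. These are bulk samples, so more cells with a transcript and more of it per cell cannot be told apart.

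**Figure D1:**
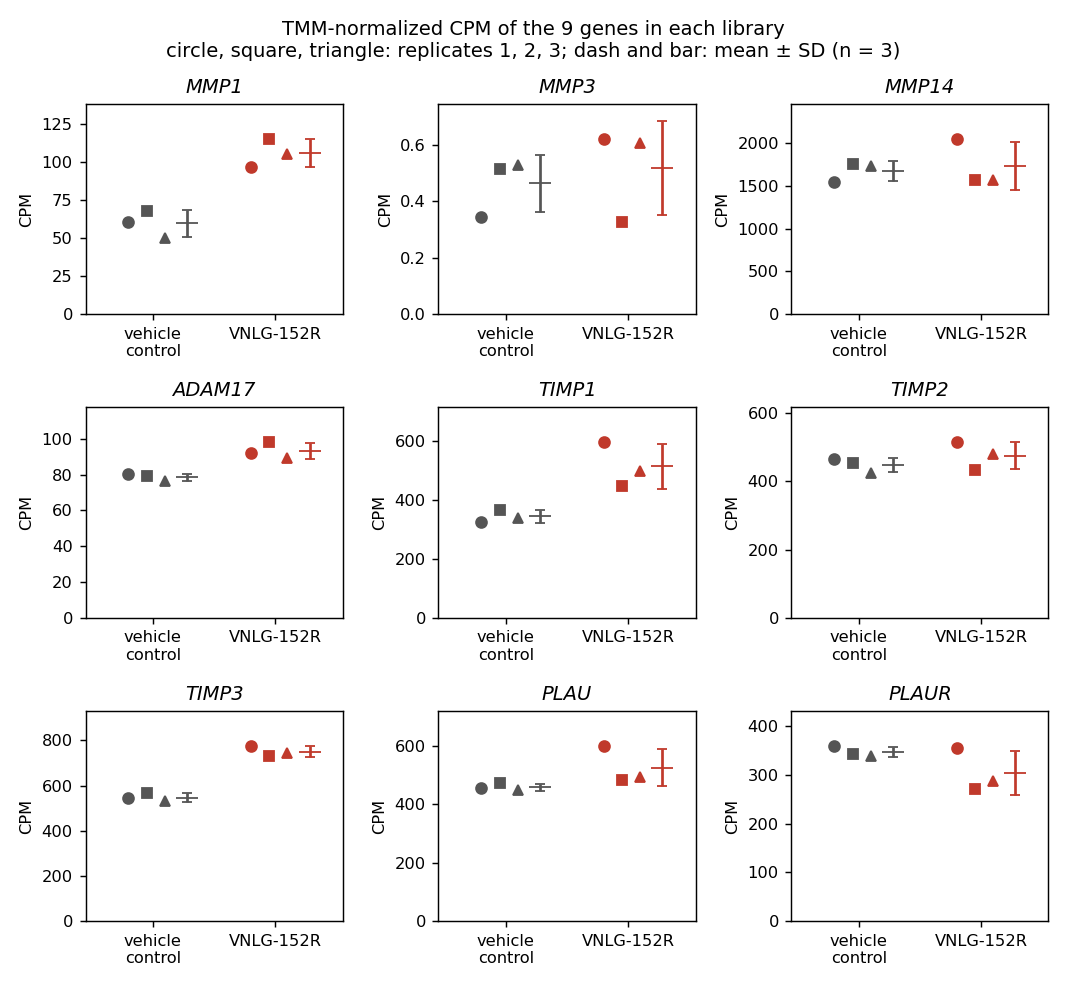
TMM-normalized CPM of each of the 9 genes (vertical axes, from 0) in the 3 vehicle control libraries (grey) and the 3 VNLG-152R libraries (red), with replicates 1, 2 and 3 as circle, square and triangle and a dash and bar for the mean ± SD (n = 3). The groups are apart for MMP1, ADAM17, TIMP1, TIMP3 and PLAU, and the first VNLG-152R library is the highest treated library for TIMP1, PLAU and PLAUR.

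The largest change among the 9 was in MMP1, the interstitial collagenase, which cleaves fibrillar collagen. Its level was 60.6, 68.3 and 50.4 CPM in the controls (59.8 ± 8.95, SD, n = 3) and 97.1, 115.6 and 105.8 CPM with VNLG-152R (106 ± 9.24). Even the lowest treated library was above the highest control. On the log2 scale the fold change was 0.83 (SE 0.11, 95% interval 0.585 to 1.07), with an adjusted p of 0.00118 in edgeR. The call held in all 16 alternative fits, with log2 fold changes of 0.72 to 0.93. MMP1 (ENSG00000196611) lies on the minus strand of chr11:102789920-102798160 in GENCODE 29 on GRCh38, and 7.61% of its exon bases lie under the antisense gene WTAPP1, which had at most 10 counts in any library.

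MMP3, stromelysin, cleaves proteoglycans and activates other proenzymes. It was barely expressed, with 21, 31 and 36 counts in the controls and 42, 25 and 50 counts with VNLG-152R. The groups overlapped. The log2 fold change of 0.15 (SE 0.31) had a 95% interval from -0.51 to 0.82, so neither a fall nor a rise within it was excluded. Without vehicle control replicate 1 the value was -0.015, and without VNLG-152R replicate 2 it was 0.40. MMP3 (ENSG00000149968, chr11:102835801-102843803, minus strand) sits in the same cluster of protease genes as MMP1. Of their neighbors there, MMP13 had 7 to 12 counts in controls and 12 to 27 after treatment, MMP10 had 1 to 5 and 2 to 11, MMP12 and MMP7 had at most 3, and MMP8, MMP20 and MMP27 were listed at 0. MMP1 alone of the cluster was thus measured above 1 CPM. A listed 0 does not show absence in these files, since EEF1G and RPS18, which every cell uses, were also listed at 0.

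MMP14 is the membrane-anchored collagenase that also activates pro-MMP2. It had 1544, 1754 and 1731 CPM in the controls (1676 ± 115, SD, n = 3) and 2049, 1569 and 1571 CPM with VNLG-152R (1730 ± 276). The first treated library was above every control, and the other two lay within the control range. Its log2 fold change of 0.05 (95% interval -0.20 to 0.29) became -0.011 without vehicle control replicate 1, and -0.091 without VNLG-152R replicate 1. MMP14 is ENSG00000157227 at chr14:22836557-22849027, plus strand, and no exon base of it is shared with another gene.

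ADAM17 releases membrane-bound growth factors and cytokines from the cell surface and is inhibited by TIMP3. Its level was 80.05, 79.2 and 76.2 CPM in the controls (78.5 ± 2.01, SD, n = 3) and 91.8, 98.0 and 89.1 CPM with VNLG-152R (93.0 ± 4.56). Every treated library was above every control. A log2 fold change of 0.24 (SE 0.08) missed the threshold, with an adjusted p of 0.0956 in edgeR, and it missed it in each of the 16 alternatives, where the adjusted p was at least 0.0517. A correction for transcript length lowered the value to 0.17. ADAM17 (ENSG00000151694, chr2:9488486-9556732, minus strand) has 13.6% of its exon bases under antisense genes, of which IAH1 had 1194 to 1453 counts in controls and 1123 to 1800 after treatment, and whether the counting used strand is not known here.

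**Figure D2:**
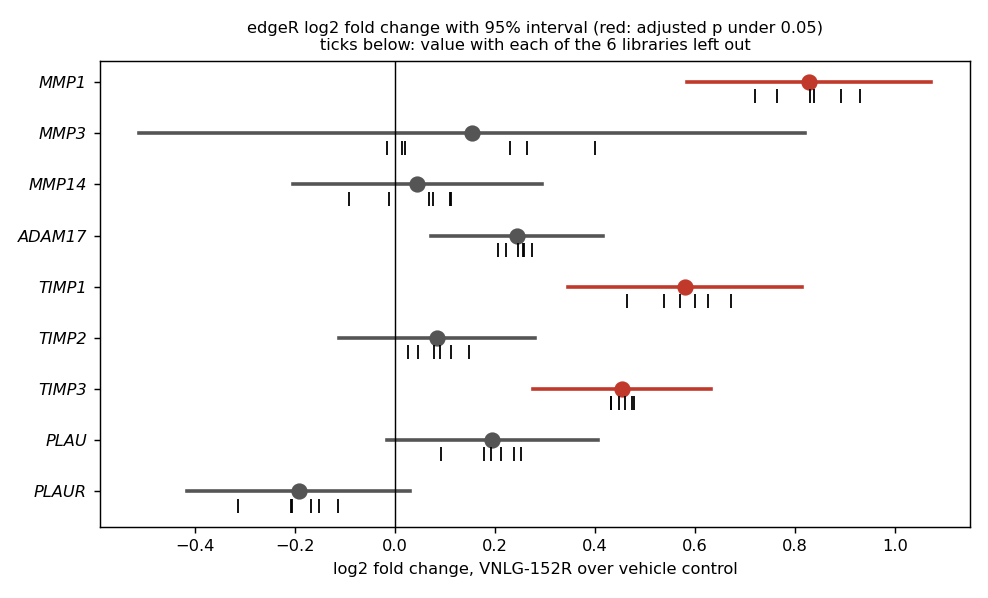
Log2 fold change of VNLG-152R over vehicle control (horizontal axis) for each of the 9 genes, with the 95% interval from edgeR as a bar and the value after leaving out each of the 6 libraries as ticks. Red marks MMP1, TIMP1 and TIMP3, which passed an adjusted p of 0.05, and the ticks cross 0 for MMP3 and MMP14.

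Of the 3 inhibitors measured, TIMP1 and TIMP3 rose and TIMP2 did not pass the test. TIMP1 is secreted and inhibits most soluble metalloproteinases, but is a weak inhibitor of MMP14. Its level was 325, 368 and 340.5 CPM in the controls (345 ± 21.7, SD, n = 3) and 597, 448 and 500.0 CPM with VNLG-152R (515 ± 75.4). The groups did not overlap, and the treated libraries spread more widely, with replicate 1 above the others. The treated group was higher by 0.58 on the log2 scale (SE 0.11, 95% interval 0.35 to 0.81), with an adjusted p of 0.00991 in edgeR. It was called in 15 of 16 alternatives and lost in 1: without vehicle control replicate 3 it was 0.57 with an adjusted p of 0.06. Without VNLG-152R replicate 1 it was 0.46 and still called. TIMP1 is ENSG00000102265 at chrX:47582313-47586789, plus strand, and lies inside the antisense gene SYN1, which had 6 to 22 counts.

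TIMP3 is held in the matrix and inhibits ADAM17 as well as metalloproteinases. It had 543, 567 and 530.0 CPM in the controls (547 ± 18.9, SD, n = 3) and 775, 730.2 and 743 CPM with VNLG-152R (749 ± 22.9). Of the 3 genes that rose it had the tightest libraries, with a coefficient of variation of 3.46% in controls and 3.06% with VNLG-152R. This gave a log2 fold change of 0.45 (SE 0.08, 95% interval 0.28 to 0.63), with an adjusted p of 0.00793 in edgeR. The call was lost in 3 of 16 alternatives while the value stayed at 0.43 to 0.48. Without vehicle control replicate 3 the adjusted p was 0.0743. TIMP3 is ENSG00000100234 at chr22:32801701-32863043, plus strand, inside the antisense gene SYN3, which had at most 3 counts.

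TIMP2 inhibits MMP14 and also joins it in a complex that activates pro-MMP2. It had 466, 454 and 425 CPM in the controls (448 ± 21.1, SD, n = 3) and 514, 433 and 479 CPM with VNLG-152R (475 ± 40.6). The groups overlapped, and the log2 fold change was 0.08 (95% interval -0.11 to 0.28). TIMP2 (ENSG00000035862, chr17:78852977-78925387, minus strand) shares 3.52% of its exon bases with CEP295NL, which had 6 to 35 counts, and has 6.52% under an antisense gene. TIMP4, the remaining inhibitor of the family, was at 1.85 CPM in controls and 1.89 with VNLG-152R (log2 fold change 0.03, adjusted p 0.948 in edgeR).

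Neither gene of the urokinase pair passed the test. PLAU had 457, 472 and 448.5 CPM in the controls (459 ± 11.7, SD, n = 3) and 599.7, 484 and 493 CPM with VNLG-152R (526 ± 64.3). All 3 treated libraries were above the controls, replicate 1 by far and the other two narrowly. The log2 fold change was 0.20 (95% interval -0.02 to 0.41, adjusted p 0.258 in edgeR), and 0.09 without VNLG-152R replicate 1. PLAU (ENSG00000122861, chr10:73909177-73917497, plus strand) has 31.1% of its exon bases under the antisense gene C10orf55, which had 62 to 115 counts.

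PLAUR, the receptor that holds urokinase at the cell surface, was the sole member with a negative value. It had 359, 342 and 339 CPM in the controls (346 ± 10.7, SD, n = 3) and 353, 270.0 and 286 CPM with VNLG-152R (303 ± 44.3). Treated replicates 2 and 3 were below every control, and replicate 1 was inside the control range. Its log2 fold change was -0.19 (95% interval -0.42 to 0.03, adjusted p 0.294 in edgeR). Without VNLG-152R replicate 1 it was -0.31 with an adjusted p of 0.0472, the single alternative of 16 that called it. PLAUR is ENSG00000011422 at chr19:43646095-43670547, minus strand.

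VNLG-152R replicate 1 was thus the highest treated library for MMP3, MMP14, TIMP1, TIMP2, TIMP3, PLAU and PLAUR and the lowest for MMP1. Log2 fold changes across the transcriptome also moved with transcript length (Spearman's rho 0.34 over 12847 genes, which are not independent replicates). Genes within 1.2-fold of the length of MMP1 had a median log2 fold change of -0.08, and the same median was -0.13 for TIMP1 and 0.01 for TIMP3. The values of MMP1, TIMP1 and TIMP3 were above these medians. They stayed called after a correction for transcript length and after thinning every library to the same depth.

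To compare levels between genes, CPM were divided by the length of all exons of a gene in kb. MMP14 had the highest mean level in controls, at 375.5 CPM per kb, followed by TIMP1 at 224, PLAU at 156, TIMP3 at 119, TIMP2 at 79.6, PLAUR at 77.7, MMP1 at 30.35, ADAM17 at 7.30 and MMP3 at 0.226. Only TIMP2 and PLAUR overlapped among neighbors in this order in the controls, at 75.5 to 82.7 and 76.0 to 80.5 CPM per kb. With VNLG-152R the order of the means was the same, led by MMP14 at 387.5 and TIMP1 at 334 CPM per kb, but more neighbors overlapped. TIMP1 at 291 to 387 CPM per kb overlapped MMP14 at 351.5 to 459, TIMP3 at 159 to 168 overlapped PLAU at 164 to 203, and PLAUR at 60.6 to 79.3 overlapped TIMP2 at 76.9 to 91.3. Dividing instead by the longest transcript moved PLAUR above PLAU and TIMP3 in controls and TIMP1 above MMP14 with VNLG-152R, so ranks inside the upper 6 depend on the length used.

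**Figure D3:**
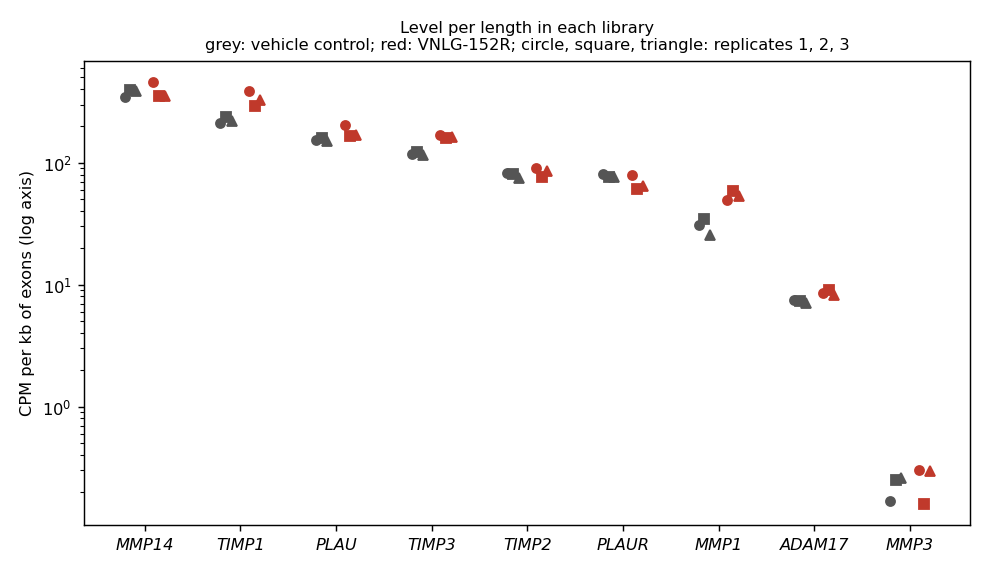
Level of each gene in CPM per kb of exons (vertical axis, log scale) in each library, grey for vehicle control and red for VNLG-152R, ordered by the control mean. MMP14 leads in both groups, at 375.5 and 387.5 CPM per kb on average, and MMP3 lies lowest, at 0.226 and 0.253.

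Summed per length, the inhibitors had more transcript after treatment and the proteases about as much. The 3 TIMPs together were at 422 ± 17.9 CPM per kb (SD, n = 3) in controls and 581 ± 60.9 with VNLG-152R. MMP1, MMP3, MMP14 and ADAM17 together were at 413 ± 26.3 and 450 ± 57.9 CPM per kb. The ratio of the protease sum to the TIMP sum was 0.933, 0.983 and 1.02 in the controls and 0.799, 0.797 and 0.726 with VNLG-152R. The TIMP sum holds TIMP1 and TIMP3, which were already called higher. Every treated library was below every control in this ratio, and of single tested genes 28.5% also had groups that did not overlap. MMP1 over the TIMP sum went the other way, with groups that overlapped, at 0.0747, 0.0783 and 0.0622 in the controls and 0.0762, 0.111 and 0.094 with VNLG-152R. MMP14 made up 90.8 ± 1.17% of the protease sum in controls and 85.8 ± 2.59% with VNLG-152R, and MMP1 accounts for most of the rest. Within the TIMP sum TIMP1 went from 53.0% to 57.3%, TIMP2 from 18.9% to 14.5% and TIMP3 from 28.2% to 28.1%. These ratios compare mRNA and not active protein, and they were not tested.

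PLAUR over PLAU per length was 0.519, 0.480 and 0.500 in the controls and 0.390, 0.369 and 0.384 with VNLG-152R. The groups did not overlap, although neither gene passed the test alone. By longest transcript the means were 1.25 in controls and 0.951 with VNLG-152R, so whether PLAUR or PLAU had the higher level depends on the length used. This ratio was not tested, and of single tested genes 28.5% also had groups that did not overlap. MMP14 over TIMP2 was 4.18, 4.87 and 5.14 in the controls and 5.03, 4.57 and 4.14 with VNLG-152R, and here the groups overlapped.

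**Figure D4:**
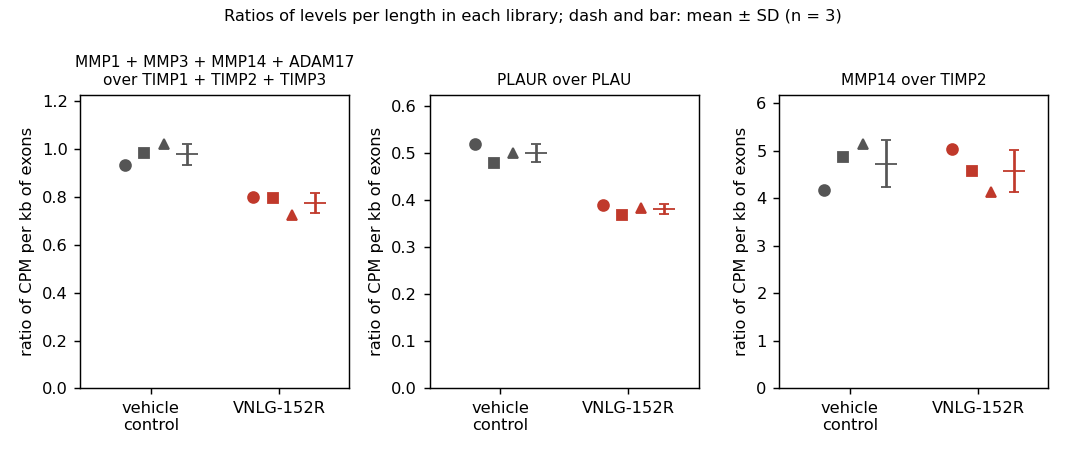
Ratio of levels per length (vertical axes, from 0) in each library for the protease sum over the TIMP sum, PLAUR over PLAU, and MMP14 over TIMP2, with a dash and bar for the mean ± SD (n = 3). Treated libraries (red) lie below the controls (grey) for the first ratio (0.774 against 0.979 on average) and the second (0.381 against 0.500), and overlap for the third.

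The other genes of the system were taken from 10 lists, in which 20 genes were called in all. By list, 0% to 38.5% of the tested genes were called, beside 5.19% over all tested genes. The lists were chosen with earlier results of these data known, so these shares are a description only. Of 20 other matrix metalloproteinases 6 could be tested and edgeR called none (2 higher and 0 lower at an unadjusted p under 0.05, none in DESeq2), with a median log2 fold change of 0.21 beside 0 over all tested genes. The gelatinase MMP9 was at 1.49 CPM in controls and 1.23 with VNLG-152R (log2 fold change -0.28, adjusted p 0.419 in edgeR). MMP2, the gelatinase that MMP14 and TIMP2 activate, had at most 10 counts in any library and was not tested. MMP1 was therefore the single MMP that was called in the fit reported. Without VNLG-152R replicate 2, 1 of the other MMPs was called as well.

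Of 16 tested ADAM and ADAMTS proteases 2 rose and 1 fell, with a median of 0.19. ADAM19 rose by 0.42 on the log2 scale, from 128 to 172 CPM, and the aggrecan and versican protease ADAMTS1 fell by 0.44, from 88.5 to 65.25 CPM. Of 16 alternatives 11 called ADAM19 and 10 called ADAMTS1, and both calls were lost with the replicate block. ADAMTS14, which processes procollagen, is the other that rose, from 0.416 to 0.9751 CPM, and it is named after its values were seen. ADAM10, the sheddase closest to ADAM17, was at 153 CPM in controls and 176 with VNLG-152R, groups that did not overlap (log2 fold change 0.20, adjusted p 0.169 in edgeR). EdgeR and DESeq2 called none of the 11 tested partners of ADAM17 and ADAM10 (1 at an unadjusted p under 0.05), including RHBDF2, which brings ADAM17 to the cell surface (log2 fold change 0.11, adjusted p 0.648).

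The plasminogen system had 5 genes that rose and 0 that fell among 13 tested in edgeR, with a median of 0.13. At an unadjusted p under 0.05 these counts were 5 and 3, and DESeq2 called 7 in either direction. Tissue plasminogen activator PLAT, which like PLAU cleaves plasminogen, went from 389, 536 and 439 CPM to 1474, 1191 and 1072 CPM, a log2 fold change of 1.45 (SE 0.14, adjusted p 6.83e-05 in edgeR). It was called in all 16 alternatives. The treated libraries lay above all controls, and replicate 1 was again the highest.

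SERPINB2, an inhibitor of urokinase, rose from 1.29 to 2.37 CPM, a log2 fold change of 0.88. It was called in 15 of 16 alternatives and lost without vehicle control replicate 3. LRP1, an endocytic receptor that clears protease complexes from the cell surface, rose by 0.78 on the log2 scale. With the transcript length correction its value was 0.54 and did not pass. LRP1 was called in 12 of 16 alternatives, and was also lost without vehicle control replicate 1 and without vehicle control replicate 3. TFPI2, a matrix inhibitor of plasmin, rose from 30.9 to 47.4 CPM (log2 fold change 0.62, adjusted p 0.000957 in edgeR) in all 16 alternatives. It also stands in the list of other metalloproteinase inhibitors and inducers, where it was the 1 gene called of 7. PLG, plasminogen itself, was listed at 0. The plasmin-binding surface protein ANXA2 was just outside the threshold (log2 fold change -0.31, adjusted p 0.0505) and is named after its values were seen.

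**Figure D5:**
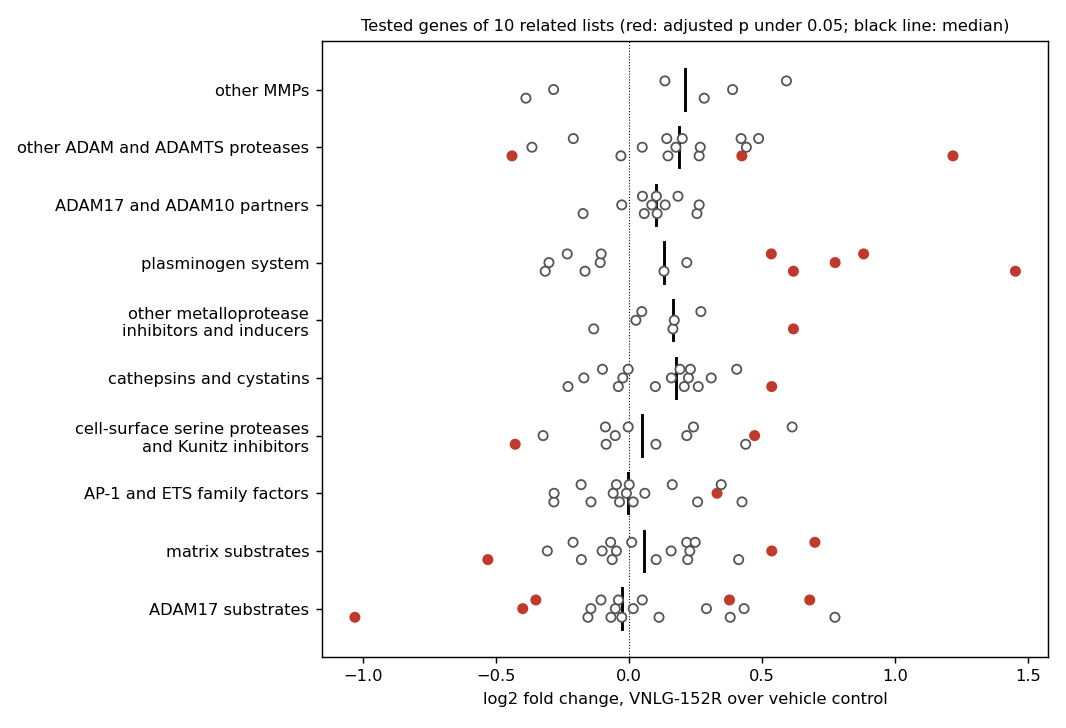
Log2 fold change of VNLG-152R over vehicle control (horizontal axis) for the tested genes of the 10 related lists, with red for an adjusted p under 0.05 and a black line at each list's median. The plasminogen system holds 5 called genes, all higher, with PLAT farthest to the right at 1.45, and the ADAM17 substrates hold genes called in both directions.

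Of 16 tested cathepsins and cystatins edgeR called 1 and DESeq2 called 2, and 6.25% in edgeR is close to the 5.19% of all tested genes. The gene edgeR called was CST4, a secreted cysteine protease inhibitor, with a log2 fold change of 0.54 and a call in 11 of 16 alternatives. Among 12 tested serine proteases and Kunitz inhibitors TFPI, which blocks the tissue factor pathway, rose by 0.47 and the protease PRSS23 fell by 0.43. Of 16 alternatives 14 called TFPI and 13 called PRSS23. Among 16 tested AP-1 and ETS factors edgeR called JUND, with a log2 fold change of 0.33, a call in 9 of 16 alternatives and a list median of 0, and DESeq2 called 2. The AP-1 subunits FOSL1 (0.35, adjusted p 0.0858 in edgeR) and JUN (-0.28, adjusted p 0.132), both named after their values were seen, did not pass.

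Matrix proteins that these enzymes cleave moved in both directions, with 2 of 18 higher, 1 lower and a median of 0.06. The basement membrane proteoglycan HSPG2 rose from 166 to 269 CPM and the laminin chain LAMA5 from 954 to 1384 CPM. THBS1, thrombospondin, fell from 339 to 235 CPM and was called in 14 of 16 alternatives. With the transcript length correction HSPG2 and LAMA5 both lost their calls, and DESeq2 did not call HSPG2. Over all alternatives their lowest log2 fold changes were 0.46 and 0.34. Of 19 tested substrates of ADAM17 2 rose and 3 fell, with a median of -0.03. The macrophage growth factor CSF1 went from 1338, 1531 and 1493 CPM to 2653, 2061 and 2273 CPM (log2 fold change 0.68, adjusted p 0.00379 in edgeR), and the adhesion molecule ALCAM rose by 0.38. The EGF family ligands NRG1 and AREG fell by 0.35 and 0.40 on the log2 scale, and the chemokine CX3CL1 fell by 1.03 from a low level of 1.87 CPM. Of 16 alternatives 9 called NRG1, 10 called CX3CL1 and 10 called ALCAM, while AREG was called in 5 and lost in each fit that left out a library. The lists together held 3 called genes without vehicle control replicate 3, 9 without vehicle control replicate 1 and 10 without VNLG-152R replicate 3, against 20 with all libraries.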

How the data were processed

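The authors sequenced strand-specific polyA libraries and deposited raw read counts per Ensembl gene. Their processing notes name HISAT, HTSeq, DESeq and GRCh38, without versions or roles. Neither the annotation release nor the strand setting is stated in the sources used here. HTSeq classes outside genes were left out, among them ambiguous reads (4.81% to 5.16%) and reads not aligned uniquely (7.81% to 8.12%). The edgeR 4.0.16 quasi-likelihood test in R 4.3.3 compared the groups after TMM normalization and filterByExpr, with Benjamini-Hochberg adjustment over 17084 genes and a threshold of 0.05. The standard error is the log2 fold change over the square root of F. The biological coefficient of variation was 0.105 with 4 residual degrees of freedom. An exact two-sided permutation test of 3 against 3 cannot go below 0.1, so none is given.

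Coordinates, lengths and overlaps come from GENCODE 29, which gave a length for 58352 identifiers, and promoters from RefSeq on GRCh38.p14. The alternatives tried were DESeq2 1.42.0, voom from limma 3.58.1, RLE factors, scaling by library size alone, a filter at a mean of 1 CPM or none, replicate blocks, a transcript length correction (lowess span 0.3), thinning (seed 1) and leaving out each library. The model was tested on simulated counts. No 2 libraries of a group agreed within sampling noise. The 9 genes and the lists were chosen with earlier results of these data known, and no list was tested as a set. Named are the 9 genes, up to 4 called genes per list and direction with a mean of at least 1 CPM, and MMP2, MMP9, TIMP4, ADAM10 and RHBDF2. Some results that this rule would name are not reported here.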

Additional observations from a re-analysis of the deposited data

How the results depend on the processing

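MMP1 kept its call under every alternative, and scaling, the expression filter, DESeq2, limma-voom, the length correction and thinning each left 3 of the 9 genes called. Changed genes numbered 887 in the fit reported, 1539 without an expression filter and 1501 with DESeq2. Same-numbered samples of the groups deviated in opposite directions (r of -0.361, -0.254 and -0.261 over 12931 genes). For samples with different numbers r was -0.102 to 0.281. Deviations from a mean of 3 libraries are tied to one another, so these values cannot settle whether the numbers pair samples. With replicate number as a block 397 genes changed, 2 of the 9 and 10 list genes were called, and TIMP3 stood at 0.45 with an adjusted p of 0.0614. The block with the length correction left 244 genes, 6 list genes and TIMP3 at 0.44. Leaving out a library gave 264 to 948 changed genes, 1 to 4 of the 9, and 3 to 19 list genes (20 with all libraries). Changed genes numbered 264 without vehicle control replicate 3, where 1 of the 9 was called, 426 without vehicle control replicate 1, 531 when VNLG-152R replicate 2 was left out and 470 for VNLG-152R replicate 3. The 4 called members came without VNLG-152R replicate 1. The log2 fold change ranged from 0.46 to 0.67 for TIMP1, 0.43 to 0.48 for TIMP3, -0.31 to -0.11 for PLAUR, -0.091 to 0.11 for MMP14 and -0.015 to 0.40 for MMP3. Without vehicle control replicate 1 MMP14 reversed to -0.0109 and MMP3 to -0.0149. Leaving out VNLG-152R replicate 1 turned MMP14 to -0.0909. By longest transcript, proteases over TIMPs were 0.884 in controls and 0.696 with VNLG-152R. The cause of these shifts was not tested. MMP3 had 21 to 50 counts per library and the widest interval of the 9.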
